A study of Mus musculus with 12 samples.

Results

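Collagens and laminins, the main structural proteins of the extracellular matrix, were followed here in mouse thymic epithelial cells (TEC). The genes were chosen by symbol alone, as a collagen chain (Col, a number, a, a number) or a laminin chain (Lama, Lamb or Lamc and a number). The rule uses no measured value, although the family was picked with earlier results of these data known. It gave 55 genes, 44 collagens and 11 laminins, of 34677 genes in the table of regularized log2 values, and all 55 had more than 3 counts in at least 1 library. RNA was measured in 4 groups of 3 libraries each: cortical TEC (cTEC) and medullary TEC (mTEC) of wild-type (WT) C57BL/6 mice and of Aβ0/0 mice, which carry a disrupted MHC class II beta chain gene and lack MHC class II molecules. Each library came from pooled thymi of 5 to 10 mice aged 4 to 6 weeks, so the spread between libraries is that between pools. The cells were sorted as Epcam+CD45-, with Ly51+UEA1- taken as cTEC and Ly51-UEA1+ as mTEC. The Aβ0/0 mice lack MHC class II in every tissue, and their CD4+ T cells are few, so a change in TEC cannot be assigned to the epithelial cells alone.

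Collagens are built of 3 chains wound into a triple helix. Fibrillar collagens form the cables of connective tissue, collagen IV forms the sheet-like network of basement membranes, collagen VI forms beaded filaments just outside them, and the collagens with interrupted helices (FACIT) decorate fibrils. Laminins are trimers of an alpha, a beta and a gamma chain that lie against the cell surface, where integrins and dystroglycan bind them. In the thymus, basement membrane lines the capsule, the septa and the vessels, and epithelial cells as well as fibroblasts and pericytes are known sources of its proteins.

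Library totals ran from 21710319 to 36139815 estimated counts. H2-Ab1, the gene disrupted in Aβ0/0 mice, was lower there in both subsets but still present: 6471 to 9987 CPM in WT cTEC against 2146 to 3697 in Aβ0/0 cTEC, and 8975 to 11140 in WT mTEC against 1890 to 3833 in Aβ0/0 mTEC. CPM here means counts relative to library size, after scaling the 12 libraries by the trimmed mean of M-values (TMM). The labelled subsets carried their markers: of 9 cTEC markers, 8 were lower in mTEC than in cTEC, and of 9 mTEC markers, 7 were higher, in each genotype (edgeR quasi-likelihood test, adjusted p under 0.05). The sorted cells were not free of other transcripts. The summed level of 8 fibroblast markers was 2211 to 2696 CPM in WT cTEC and 203 to 280 CPM in WT mTEC, most of it from Dcn (decorin). Dcn, Dpt and Lum were called higher in WT cTEC and none of the 8 in WT mTEC, and Pdgfra lay below 7 CPM in all 12 libraries. The levels below are of sorted pools, in which fewer cells of a type and less RNA per cell cannot be told apart.

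A few chains made up much of the matrix RNA. The 5 chains with the highest level took 44.1% of the summed TPM (a level corrected for transcript length and library size) of all 55 genes in WT cTEC, 48.4% in Aβ0/0 cTEC, 53.2% in WT mTEC and 58.6% in Aβ0/0 mTEC. In WT cTEC the highest TPM was that of Col18a1, whose protein is the source of the fragment endostatin, at 198 ± 99.7 (SD, n = 3). It was followed by Col6a1 at 140 ± 50.4 TPM, Col4a1 at 135 ± 39.7 TPM, Lamb1 at 97.2 ± 34.6 TPM and Lamb3 at 97.1 ± 61.7 TPM, neighbours that lay within each other's spread. In Aβ0/0 cTEC the leading chains were the same 5, with Col18a1 at 188 ± 112 TPM and Col4a1 at 131 ± 73.7 TPM. In mTEC the order was another. Col6a1 came first in WT mTEC at 138 ± 22.1 TPM, before Col4a1 at 110 ± 16.9 TPM, Col6a2 at 96.4 ± 23.3 TPM and Lamb3 at 39.5 ± 6.39 TPM. In Aβ0/0 mTEC, Col6a1 stood at 228 ± 86.3 TPM and Col6a2 at 163 ± 56.5 TPM, above Col4a1 at 140 ± 16 TPM and Lamb3 at 65.4 ± 32.6 TPM. Over all members, 31 of 44 collagens and 9 of 11 laminins reached a mean of 1 TPM in WT cTEC, 28 and 8 in Aβ0/0 cTEC, 37 and 9 in WT mTEC, and 34 and 9 in Aβ0/0 mTEC.

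**Figure D1:**
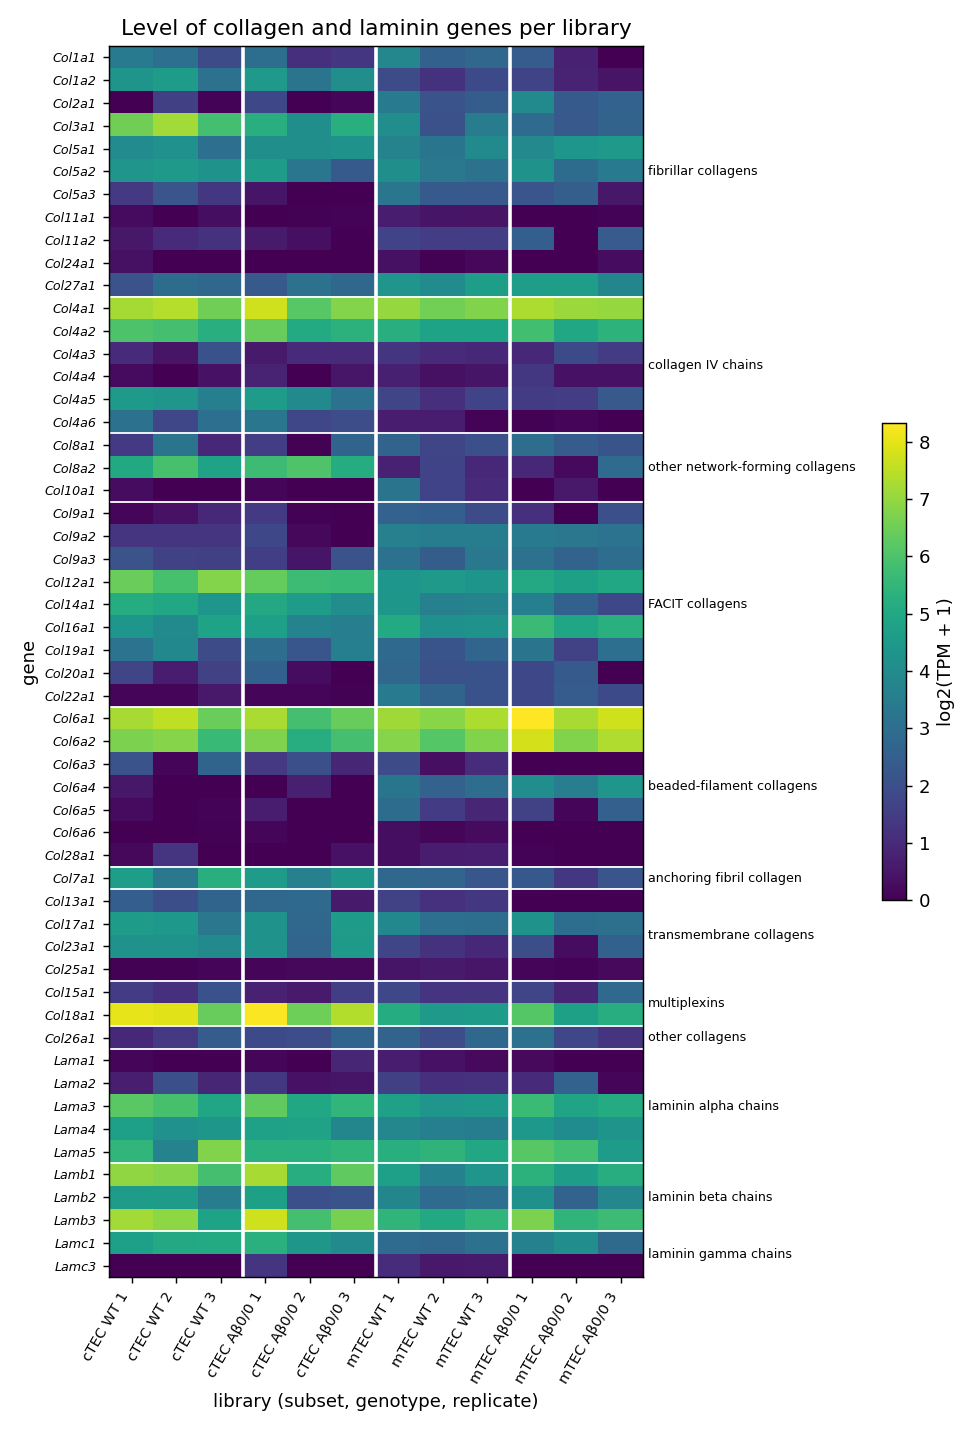
Heat map of log2(TPM + 1) for the collagen and laminin genes (lines, grouped by role) in the 12 libraries (columns, 3 per group, separated by white lines). Col4a1, Col6a1 and Col6a2 are bright in every library, Col18a1 and Lamb1 are brighter in cTEC, and Lamc3 is dark outside WT mTEC and 1 Aβ0/0 cTEC library.

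Some of these levels rested on models that code for no full protein. For Lama5, whose chain is the widespread alpha chain of adult epithelial basement membranes, only 20.7% of the TPM in WT cTEC and 11.2% in WT mTEC fell on protein-coding transcripts. The rest was assigned to transcripts not annotated as protein-coding. The coding share was also low for members called below, at 18.7% in WT cTEC and 16.5% in WT mTEC for Col27a1, 31.2% and 22.2% for Col7a1, and, in WT mTEC, 24.5% for Col11a1 and 47.0% for Col13a1. For Lama3, by contrast, the single model Lama3-202 carried 98.8% of the TPM in WT cTEC and 98.4% in WT mTEC. The ratio of Col6a1 to Col6a2, which pair in collagen VI, was alike in the groups, at 1.64 ± 0.15 in WT cTEC, 1.5 ± 0.09 in Aβ0/0 cTEC, 1.46 ± 0.19 in WT mTEC and 1.40 ± 0.08 in Aβ0/0 mTEC in TPM (SD, n = 3). Col4a1 to Col4a2, which combine in the common collagen IV trimer, stood at 2.55 ± 0.32 in WT cTEC and 3.58 ± 0.31 in WT mTEC. Col6a3, the large chain that collagen VI assembly needs, had 2.97 TPM in WT cTEC and 1.40 TPM in WT mTEC, far under its partners in each.

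The 6 collagen IV genes sit in 3 head-to-head pairs, and the pairs behaved unlike each other, which is why their starts are described. On mouse build GRCm38, the first exons of Col4a1 (chr8:11198423-11312826, minus strand) and Col4a2 (chr8:11312805-11449287, plus strand) share 22 bases at opposite strands. The annotated starts of Col4a4 (chr1:82448423-82586849, minus) and Col4a3 (chr1:82586921-82722059, plus) lie 71 bases apart, and those of Col4a6 (chrX:141165403-141474076, minus) and Col4a5 (chrX:141475385-141689234, plus) lie 1308 bases apart. Col8a2 (chr4:126286793-126314330, plus) is added as the member with the largest fold lower in mTEC in WT. The stretches below end at the base before the gene's annotated start and come from RefSeq promoter windows of GRCm38.p6, in the direction of the gene named. Capitals mark matches, on either strand, to GGGCGG, the core of a GC box, or to a CCAAT box. A search for TATAAA, the TATA box, found none on either strand in the 4 stretches.
Col4a4, chr1:82586850-82586920, minus strand, all bases up to the start of Col4a3: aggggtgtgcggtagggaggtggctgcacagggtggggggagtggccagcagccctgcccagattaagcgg
Col4a5, chrX:141475169-141475384, plus strand: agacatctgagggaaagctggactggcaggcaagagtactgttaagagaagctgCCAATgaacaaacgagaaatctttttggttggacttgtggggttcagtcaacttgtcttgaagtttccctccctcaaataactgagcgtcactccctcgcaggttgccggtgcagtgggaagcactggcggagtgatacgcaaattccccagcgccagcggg
Col4a6, chrX:141474077-141474326, minus strand: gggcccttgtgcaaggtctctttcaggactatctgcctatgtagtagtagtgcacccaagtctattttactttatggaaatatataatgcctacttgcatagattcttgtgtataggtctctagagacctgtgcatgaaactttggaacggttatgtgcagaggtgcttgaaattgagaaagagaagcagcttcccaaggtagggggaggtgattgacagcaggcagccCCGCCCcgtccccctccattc
Col8a2, chr4:126286544-126286792, plus strand: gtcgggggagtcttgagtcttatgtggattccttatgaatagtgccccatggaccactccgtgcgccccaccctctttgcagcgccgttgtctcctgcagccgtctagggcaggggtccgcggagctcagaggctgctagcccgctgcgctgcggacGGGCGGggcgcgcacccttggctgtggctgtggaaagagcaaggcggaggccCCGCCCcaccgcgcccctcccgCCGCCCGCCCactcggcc

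The stretch of Col8a2 held 4 GGGCGG matches, 2 of them overlapping, that of Col4a6 held 1 and those of Col4a4 and Col4a5 none, while Col4a5 held 1 CCAAT. Over RefSeq windows of 300 bases (250 before to 50 after a start), GGGCGG was present in 59.1% of the 44 windows of 40 members that had an entry, and in 35.7% of 32851 windows of all genes. CCAAT was present in 31.8% of member windows against 37.4% of all windows, and TATAAA in 11.4% against 13.6%. These shares are descriptions, and a match is not evidence of a bound site.

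The comparison of mTEC with cTEC asks which matrix chains each epithelial compartment makes. In WT mice all 55 members were tested and 25 passed, 10 higher in mTEC and 15 higher in cTEC. Over all genes tested, 18% were higher in mTEC and 8.81% were higher in cTEC by the same test. Of the 10 called on the mTEC side, 6 (Col6a5, Col9a1, Col10a1, Col22a1, Col25a1 and Lamc3) passed the filter on low counts only through the mTEC libraries, where they were high, and Col4a6 on the cTEC side passed it only through the cTEC libraries. The calls of these 7 genes were thus bound to the direction in which they had entered. The chains called higher in cTEC included Col18a1, Lamb1, Lamc1, Lama3, Lama4, 3 collagen IV chains, Col7a1, Col3a1 and Col1a2. Those called higher in mTEC included the 3 chains of collagen IX. Libraries of cTEC and mTEC with the same number were taken to come from the same pool, since the study's sorting table lists both under one number, although the labels do not say so. An adjusted p from the fit with the pool as a block is given wherever it ended or added a call.

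Of the 11 laminin chains, 4 were called higher in cTEC and 1 in mTEC. Lamb1, the beta chain of many tissues, had 442, 418 and 296 CPM in the 3 WT cTEC libraries and 95.5, 55.4 and 88.7 CPM in WT mTEC. Its level was thus lower in every mTEC library, 4.81-fold by the fit (log2 fold change -2.27, SE 0.30, adjusted p = 0.00185). Lamc1, the gamma chain that usually joins it, had 118, 150 and 65 CPM in cTEC and 29.1, 20.9 and 24.2 CPM in mTEC (4.48-fold lower, adjusted p = 0.00364). Lama3 and Lamb3 encode chains of the laminin that anchors epithelia through hemidesmosomes. Of these, Lama3 had 266, 216 and 158 CPM in cTEC and 104, 92.4 and 94.2 CPM in mTEC (2.20-fold lower, adjusted p = 0.0104). Lamb3 spread from 105 to 369 CPM in cTEC against 104 to 129 CPM in mTEC, groups that overlapped (log2 fold change -1.18, SE 0.43, adjusted p = 0.0803). These chains therefore did not give the same call. Lama4, a chain of vessel and mesenchymal laminins, was 2.41-fold lower in mTEC (33.9 to 95.1 against 25.9 to 29.7 CPM, adjusted p = 0.0355), a call that ended with the pool as a block (adjusted p = 0.0680). Lamb2, at 37.2 to 53.1 against 14.9 to 34.5 CPM, missed the threshold without the block (adjusted p = 0.0633) and passed with it (adjusted p = 0.0463). Lama5 (33.5 to 97.1 against 39.7 to 59.2 CPM) and Lama2 (1.51 to 4.76 against 2.46 to 7.55 CPM) overlapped and did not pass. Lama1 did not pass either, although each mTEC library lay above each cTEC library (0 to 0.573 against 1.16 to 3.99 CPM).

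The laminin chain called on the mTEC side was Lamc3, a gamma chain known from brain, retina and skin. It had 0 counts in all 3 WT cTEC libraries and 4.45, 2.40 and 2.53 CPM in WT mTEC, at least 28.2-fold higher against a floor of 3 counts per library (adjusted p = 0.00491).

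The collagen IV pairs parted. Col4a5 had 80.8, 61.3 and 45.2 CPM in WT cTEC and 8.48, 5.02 and 8.96 CPM in WT mTEC, 8.32-fold lower (log2 fold change -3.06, SE 0.35, adjusted p = 0.00112). Col4a6, its head-to-head neighbour, had 32.9, 10.7 and 47.5 CPM in cTEC and 2.21, 2.91 and 0.281 CPM in mTEC, 16.8-fold lower (adjusted p = 0.0118). Both chains of this pair were lower in each mTEC library than in any cTEC library. Col4a2 was 1.60-fold lower in mTEC (237 to 261 against 144 to 168 CPM, adjusted p = 0.0346), a call that ended with the pool as a block (adjusted p = 0.0603). Its neighbour Col4a1 overlapped between subsets (357 to 574 against 310 to 418 CPM, adjusted p = 0.306). Col4a3 and Col4a4, the pair known from kidney glomeruli, stayed below 5 CPM in every WT library and did not pass.

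Col18a1, Col7a1, Col8a2 and Col23a1 were also higher in cTEC. Col18a1, a collagen of basement membranes, had 836, 810 and 403 CPM in WT cTEC and 115, 85 and 91 CPM in WT mTEC, 7.03-fold lower (log2 fold change -2.81, SE 0.34, adjusted p = 0.00138). Col7a1, the anchoring fibril collagen that ties epithelial basement membrane to the stroma beneath, had 74.4, 20.8 and 73.9 CPM in cTEC and 13.8, 7.75 and 6.99 CPM in mTEC (5.92-fold lower, adjusted p = 0.00958). Col8a2, a short network collagen, had 61.5, 83.9 and 43.7 CPM in cTEC and 0.636, 5.17 and 0.905 CPM in mTEC. That was 27.8-fold lower, the largest fold of any member lower in mTEC in WT (log2 fold change -4.80, SE 0.81, adjusted p = 0.00501). Col23a1, a membrane-spanning collagen, was the member with the smallest p here, at 60.6 to 80.2 against 4.06 to 5.94 CPM (14.0-fold lower, adjusted p = 0.000251).

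Among the 11 fibrillar chains, 2 were higher in cTEC and 2 in mTEC. Col3a1, the chain of reticular fibres, had 272, 405 and 132 CPM in WT cTEC and 49.4, 9.40 and 38.2 CPM in WT mTEC (8.31-fold lower, adjusted p = 0.0106). Col1a2 had 39.2 to 79.3 against 5.80 to 10.2 CPM (6.97-fold lower, adjusted p = 0.00191). Its partner chain Col1a1 did not share that pattern: it had 16.4 to 37.5 CPM in cTEC and 25.1 to 53.8 CPM in mTEC and did not pass. Col27a1, a cartilage collagen, was 3.25-fold higher in mTEC (9.38 to 19.4 against 38 to 52.7 CPM, adjusted p = 0.00715). Col5a3 was 2.64-fold higher (6.39 to 14.3 against 19.9 to 37.5 CPM, adjusted p = 0.0413), a call that ended with the pool as a block (adjusted p = 0.0820).

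Of the 9 FACIT chains, 4 were higher in mTEC and 2 in cTEC. All 3 chains of collagen IX, a partner of cartilage fibrils, were on the mTEC side. Col9a2 had 2.54, 2.61 and 3.85 CPM in WT cTEC and 22.7, 24.8 and 23.9 CPM in WT mTEC, 7.94-fold higher (log2 fold change 2.99, SE 0.37, adjusted p = 0.00141). Col9a1 (0.205 to 2.70 against 6.68 to 11.7 CPM) and Col9a3 (2.74 to 3.81 against 9.25 to 13 CPM) were 8.36-fold and 3.54-fold higher, with adjusted p = 0.0448 and 0.0210. Both of these calls ended with the pool as a block (adjusted p = 0.0658 and 0.0671). Col22a1, a collagen of muscle-tendon junctions, was 24.8-fold higher in mTEC (0.243 to 1.31 against 7.93 to 22.1 CPM, adjusted p = 0.00734). Col12a1 and Col14a1, which bind collagen I fibrils, were higher in cTEC, Col12a1 4.37-fold (234 to 332 against 58.9 to 72.5 CPM, adjusted p = 0.000825) and Col14a1 1.84-fold (64.8 to 88.4 against 33.6 to 52 CPM, adjusted p = 0.0320).

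The 3 other collagens called on the mTEC side were low in cTEC. Col10a1, the collagen of hypertrophic cartilage, had 0.409, 0 and 0 CPM in WT cTEC and 17.8, 5.65 and 2.44 CPM in WT mTEC (adjusted p = 0.0301). Col6a5, a collagen VI chain of restricted tissues, had 1.02, 0 and 0.516 CPM in cTEC and 35.5, 10 and 6.59 CPM in mTEC (adjusted p = 0.0242). Col25a1, a membrane collagen of neurons, had 0.0409 to 0.238 against 0.687 to 1.56 CPM (adjusted p = 0.0351, and 0.127 with the pool as a block). The levels of these genes in mTEC spread widely, with replicate 1 the highest for Col10a1 and Col6a5. Col6a4 did not pass in the main fit but passed with the block (adjusted p = 0.0406). It also passed with limma on the regularized log2 values (adjusted p = 0.0113) and without WT cTEC replicate 1. The main collagen VI chains, Col6a1 at 341 to 493 against 391 to 520 CPM and Col6a2 at 189 to 293 against 232 to 341 CPM, overlapped between the WT subsets.

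In WT, 3 of 8 fibroblast markers were called lower in mTEC, the side on which Col3a1, Col1a2, Col12a1 and Col14a1 lay, and none higher, while 3 of the 8 had a fold change above 0. Mural cell (pericyte and smooth muscle) markers summed to 447 to 1099 CPM in WT cTEC and 900 to 1209 CPM in WT mTEC, ranges that overlapped, with 2 of 7 called higher in mTEC. Endothelial markers summed to 66.4 to 147 and 54.5 to 85.3 CPM, with 1 of 8 called lower in mTEC, and thymocyte markers to 215 to 399 and 67.9 to 128 CPM, with 5 of 7 called lower. The part of these cells in the differences was not tested. With 1 library left out at a time, 15 of the 25 calls were kept in all 6 fits, among them Lamb1, Lamc1, Col18a1, Col4a5, Col8a2, Col3a1 and Col9a2. The 15 also include Lamc3, Col4a6 and Col22a1, whose direction was set by how they passed the filter. The median log2 fold change was 0.10 over the 55 members and 0.06 over all genes tested. With 1 library left out, the members' median ran from -0.29 (without WT mTEC replicate 1) to 0.33 (without WT mTEC replicate 2). Several members share exon bases with another gene, and the libraries keep no strand, so reads of Col4a1 and Col4a2, Col10a1 and Nt5dc1, Col9a3 and Tcfl5, and Col22a1, Lama3 or Lamc3 and their antisense transcripts could not be fully told apart.

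**Figure D2:**
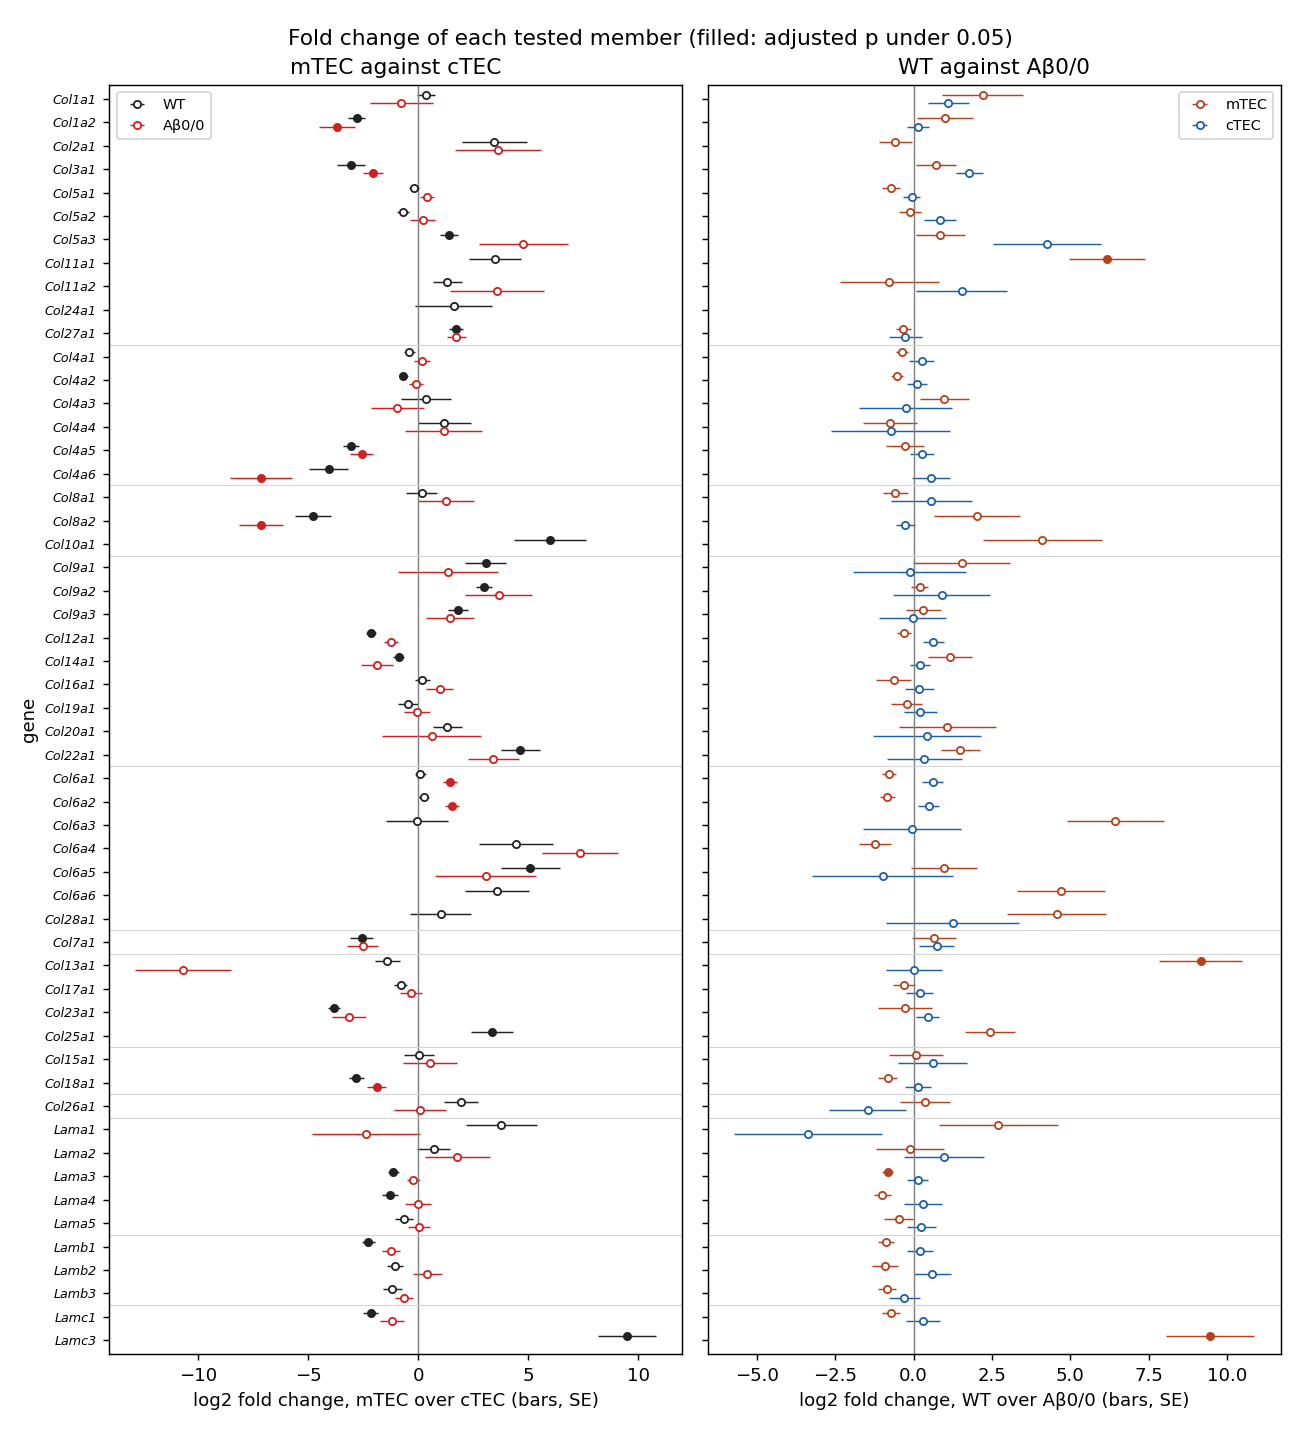
Log2 fold change of each tested member (points, with SE bars), in mTEC over cTEC on the left (WT and Aβ0/0) and in WT over Aβ0/0 on the right (mTEC and cTEC), with filled points where the adjusted p was under 0.05. On the left 25 points are filled for WT and 8 for Aβ0/0; on the right 4 are filled for mTEC and 0 for cTEC.

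The same comparison in Aβ0/0 mice gave fewer calls. Of 47 members tested, 8 passed, 2 higher in mTEC (3.45% of all genes tested) and 6 higher in cTEC (2.15% of all genes tested). The other 8 members (Col6a3, Col6a6, Col10a1, Col11a1, Col24a1, Col25a1, Col28a1 and Lamc3) reached the minimum of the filter in too few of these libraries. DESeq2, run without this filter, called 1 of these 8, Col6a3, higher in cTEC (adjusted p = 0.000355). Col8a2 and Col4a6 passed it only through the cTEC libraries, where they were high. Col8a2 had 88.7, 68.9 and 71.2 CPM in Aβ0/0 cTEC and 0.153, 0.106 and 1.35 CPM in Aβ0/0 mTEC (142-fold lower, log2 fold change -7.15, SE 1.01, adjusted p = 0.00968). It was the only one of the 8 members whose call was kept whichever library was left out. Col18a1 had 949, 352 and 579 CPM in cTEC and 237, 126 and 144 CPM in mTEC (3.70-fold lower, adjusted p = 0.0446). Col4a6 had 35.5, 13.7 and 13.5 CPM in cTEC and 0.153, 0.284 and 0 CPM in mTEC (adjusted p = 0.0312, and 0.0695 with the pool as a block). Col4a5 was 5.91-fold lower in mTEC (31.6 to 78.2 against 6.42 to 13.5 CPM, adjusted p = 0.0358, and 0.0932 with the block). Col1a2 (37.2 to 65.7 against 0.90 to 8.31 CPM, 12.9-fold lower, adjusted p = 0.0408) and Col3a1 (52.6 to 102 against 10.5 to 25.5 CPM, 4.10-fold lower, adjusted p = 0.0430) completed the 6, and both calls ended with the block (adjusted p = 0.0674 and 0.0749). Fibroblast markers summed to 2180 to 2878 CPM in Aβ0/0 cTEC and 239 to 565 CPM in Aβ0/0 mTEC, with 1 of 8, Dcn, called lower in mTEC. Thymocyte markers summed to 455 to 622 and 43.6 to 101 CPM, with 2 of 7 called lower, and the part of these cells in the result was not tested. With the block Col12a1 and Col23a1 were added (adjusted p = 0.0420 and 0.0392).

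The 2 chains called higher in Aβ0/0 mTEC were Col6a1 and Col6a2, which had not passed in WT. Col6a1 had 382, 198 and 239 CPM in Aβ0/0 cTEC and 911, 607 and 722 CPM in Aβ0/0 mTEC, with no overlap (2.73-fold higher, log2 fold change 1.45, SE 0.32, adjusted p = 0.0418). Col6a2 had 258, 121 and 160 CPM in cTEC and 606, 419 and 534 CPM in mTEC (2.89-fold higher, log2 fold change 1.53, SE 0.33, adjusted p = 0.0412). Mural cell markers summed to 1284 to 1994 CPM in Aβ0/0 mTEC against 448 to 639 CPM in Aβ0/0 cTEC, with 3 of 6 tested called higher, and their part in the result was not tested. Col13a1 had 9.90, 9.21 and 1.07 CPM in Aβ0/0 cTEC and 0 in all 3 Aβ0/0 mTEC libraries (at least 60.5-fold lower) but missed the threshold (adjusted p = 0.0502). No laminin chain passed: Lamb1 had 172 to 535 against 120 to 159 CPM, Lamc1 43.3 to 174 against 30.4 to 50.1 CPM, and Lama3 142 to 275 against 155 to 196 CPM. The Aβ0/0 cTEC libraries spread widely in these chains, with replicate 1 the highest for Lamb1, Lamc1 and Lama3. Of the 47 members tested in both genotypes, 22 were called in WT and 8 in Aβ0/0, and the 6 called in both had the same sign (27.3% of the WT calls and 75% of the Aβ0/0 calls). The shares over all genes tested in both were 21.7% and 83%.

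The comparison of WT with Aβ0/0 mTEC asks which matrix chains differ in level in sorted mTEC when MHC class II is absent. Lama3 passed on the Aβ0/0 side, and the scarce chains Col13a1, Lamc3 and Col11a1 passed on the WT side. Of 53 members tested, 4 passed, 3 of them higher in WT (5.32% of all genes tested) and 1 higher in Aβ0/0 (0.338% of all genes tested). The median log2 fold change was -0.12 over the 53 members and 0.00 over all genes. With 1 library left out, the members' median ran from -0.37 (without WT mTEC replicate 1) to 0.19 (without Aβ0/0 mTEC replicate 1). Col24a1 and Col4a6 reached the minimum of the filter in too few libraries to be tested. The 3 on the WT side passed the filter on low counts only through the WT libraries. Without adjustment 20 members had p under 0.05 (15.3% of all genes tested did), and DESeq2 called 13 of 55 (9.0% of all genes it tested). All 4 calls were lost when any 1 of 5 of the 6 libraries was left out, and were kept only without Aβ0/0 mTEC replicate 1. With the replicate number as a block they ended as well (adjusted p = 0.230 for each), and in edgeR 0 of all genes tested passed, with 21 members at an unadjusted p under 0.05.

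Lama3 had 104, 92.4 and 94.2 CPM in WT mTEC and 196, 155 and 157 CPM in Aβ0/0 mTEC, groups that did not overlap (1.78-fold higher in Aβ0/0, log2 fold change -0.83, SE 0.18, adjusted p = 0.0484). The call ended with relative log expression (RLE) scaling in place of TMM (adjusted p = 0.0522) and with limma on the regularized log2 values (adjusted p = 0.138), which called Lama4 (adjusted p = 0.0273) on that side. Lamb3, a chain of the same trimer, lay on the same side without passing, at 104 to 129 against 155 to 286 CPM (adjusted p = 0.195). The same held for Lama4 at 25.9 to 29.7 against 39.8 to 61.5 CPM (log2 fold change -0.99, SE 0.26, adjusted p = 0.0946), Lamb1 at 55.4 to 95.5 against 120 to 159 CPM (adjusted p = 0.144) and Lamc1 at 20.9 to 29.1 against 30.4 to 50.1 CPM (adjusted p = 0.304). Lamb2 (14.9 to 34.5 against 29.4 to 51.6 CPM), Lama5 (39.7 to 59.2 against 32.9 to 108 CPM) and Lama2 (2.46 to 7.55 against 0.60 to 10.3 CPM) overlapped. Lama3, Lama4, Lamb1, Lamb3 and Lamc1 therefore had no WT library above an Aβ0/0 library.

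Col6a1, Col6a2, Col18a1 and Col4a2 lay on the Aβ0/0 side without passing. Col6a1 had 404, 391 and 520 CPM in WT mTEC and 911, 607 and 722 CPM in Aβ0/0 mTEC (log2 fold change -0.79, SE 0.22, adjusted p = 0.123). Col6a2 had 312, 232 and 341 CPM against 606, 419 and 534 CPM (log2 fold change -0.84, SE 0.23, adjusted p = 0.111). Col18a1 had 85 to 115 CPM against 126 to 237 CPM (adjusted p = 0.224), and Col4a2 had 144 to 168 CPM against 193 to 248 CPM (adjusted p = 0.208). None of these passed in edgeR, while DESeq2 called Col6a1 (adjusted p = 0.0281), Col6a2 (adjusted p = 0.0251), Lama4 (adjusted p = 0.00512) and Lamb1 (adjusted p = 0.0470).

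Col13a1, Lamc3 and Col11a1 passed on the WT side. Col13a1, a membrane collagen of neuromuscular junctions and epithelia, had 3.14, 1.86 and 2.59 CPM in WT mTEC and 0 counts in all 3 Aβ0/0 libraries (at least 22.7-fold higher in WT, adjusted p = 0.0352). Lamc3 had 4.45, 2.40 and 2.53 CPM in WT and 0 in Aβ0/0 (at least 28.1-fold higher, adjusted p = 0.0352). Col11a1, a chain of cartilage fibrils, had 1.70, 1.02 and 0.937 CPM in WT and 0, 0 and 0.0375 CPM in Aβ0/0 (at least 10.9-fold higher, adjusted p = 0.0358). A pair of scarce collagen VI chains followed without passing. Col6a3 had 9.67, 0.992 and 3.50 CPM in WT and at most 0.0766 CPM in Aβ0/0 (at least 42.4-fold higher, adjusted p = 0.0690), and Col6a6 had 1.48, 0.661 and 1.25 CPM in WT and at most 0.115 CPM in Aβ0/0 (at least 10.2-fold higher, adjusted p = 0.142). Col25a1 (0.687 to 1.56 against 0.142 to 0.338 CPM) and Col28a1 (0.721 to 2.12 against 0 to 0.191 CPM) lay on the same side (adjusted p = 0.177 and 0.212). Like the 3 chains that passed, these 4 entered the edgeR test only through the WT libraries, where they were high. DESeq2 called these 4 on the WT side, Col6a3 (adjusted p = 2.3e-05), Col6a6 (adjusted p = 0.0271), Col25a1 (adjusted p = 0.0465) and Col28a1 (adjusted p = 0.0464). Aire, which drives the expression of tissue-restricted genes in mTEC, had 441 to 997 CPM in WT mTEC and 120 to 179 CPM in Aβ0/0 mTEC, and its part in these differences was not tested. By the study's sorting table, every Aβ0/0 mTEC pool yielded fewer sorted cells than any WT mTEC pool. The part of cell number in the zeros of these scarce chains was not tested.

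**Figure D3:**
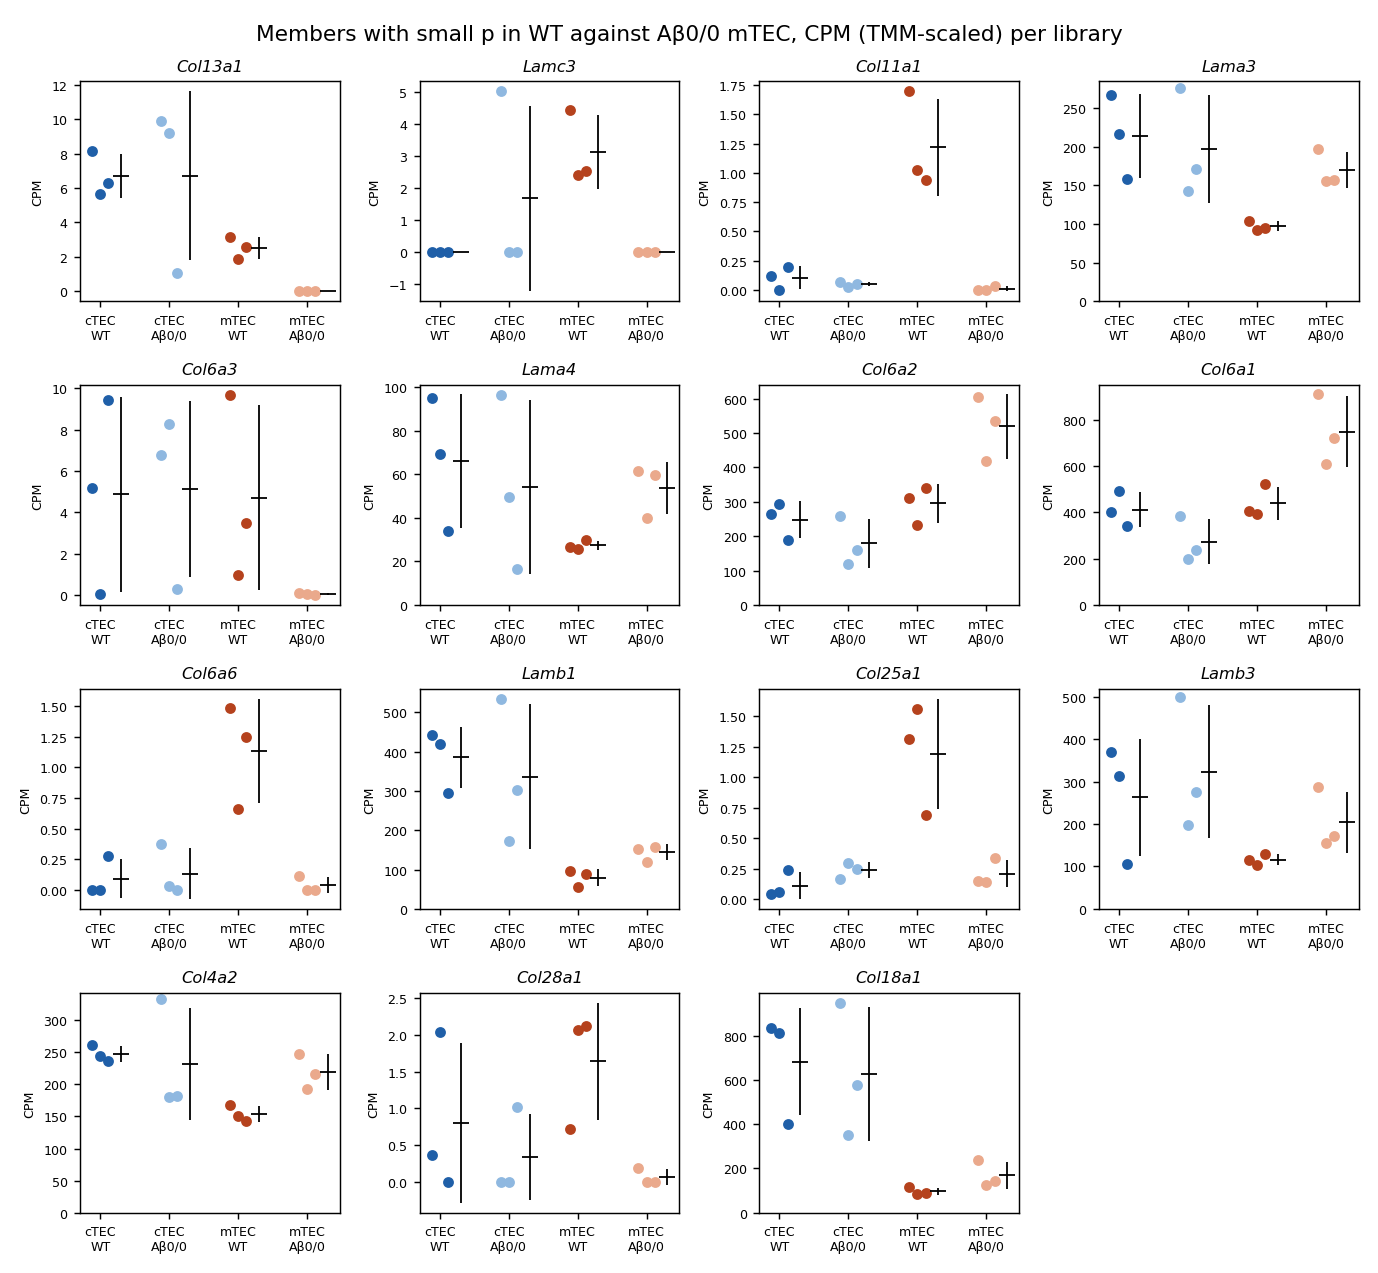
CPM (TMM-scaled) of 15 members with small p in WT against Aβ0/0 mTEC, 1 panel per gene, with 1 point per library in 4 groups and the mean with SD beside the points. Col13a1 and Lamc3 are at 0 in the 3 Aβ0/0 mTEC libraries, and Lama3, Lama4, Col6a1, Col6a2 and Lamb1 are higher in each Aβ0/0 than in each WT mTEC library.

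Counted over all members, 12 had every WT mTEC library above every Aβ0/0 library (18.7% of all genes tested did), and 10 had every WT library below (7.68% of all genes tested). The 12 were Col1a1, Col4a3, Col6a3, Col6a6, Col10a1, Col11a1, Col13a1, Col22a1, Col25a1, Col28a1, Lama1 and Lamc3. Of these, Col6a3, Col6a6, Col11a1, Col13a1 and Lamc3 had at most 3 counts in every Aβ0/0 library. Col1a1, Col10a1, Col25a1, Col28a1 and Lama1 reached the minimum of the filter on low counts in fewer than 3 Aβ0/0 libraries. All of these genes needed the WT libraries to pass the filter, which favoured that side. Among the 10 were Col4a2, Col6a1, Col6a2, Col18a1, Lama3, Lama4, Lamb1, Lamb3 and Lamc1. On the plain library total, without TMM, the counts were 12 and 7, against 20.8% and 5.91% of all genes, with Col4a2, Col18a1 and Lamc1 no longer among those below and with Col9a2 in place of Lama1 among those above. Among the role groups, none had every WT mTEC library above every Aβ0/0 library. The summed beaded-filament collagens had 646 to 885 CPM in WT mTEC and 1043 to 1567 CPM in Aβ0/0 mTEC. Most of that sum was Col6a1 and Col6a2. Of the 7 chains in this group, 4 had a fold change above 0, toward WT (median log2 fold change 0.97). The laminin beta chains had 174 to 245 against 305 to 491 CPM, and the alpha chains 166 to 202 against 250 to 371 CPM. These 3 groups and the multiplexins (88.6 to 121 against 128 to 245 CPM, mostly Col18a1) did not overlap between genotypes. The fibrillar collagens overlapped (224 to 390 against 287 to 341 CPM). On the plain library total the 3 groups were still apart, but the multiplexins overlapped (88.5 to 131 against 114 to 257 CPM). On the plain library total, the 11 laminins summed to 650 ± 110 CPM in WT mTEC and 1030 ± 295 CPM in Aβ0/0 mTEC (SD, n = 3), a WT to Aβ0/0 ratio of 0.631. The 44 collagens summed to 2111 ± 399 and 2746 ± 761 CPM, a ratio of 0.769, in which the ranges overlapped. Mural cell markers summed to 900 to 1209 CPM in WT mTEC and 1284 to 1994 CPM in Aβ0/0 mTEC, with none of 7 called. Endothelial markers were at 54.5 to 85.3 and 21.8 to 37.9 CPM, with Emcn at 0 in Aβ0/0 mTEC, and fibroblast markers at 203 to 280 and 239 to 565 CPM. The part of these cells in the result was not tested.

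**Figure D4:**
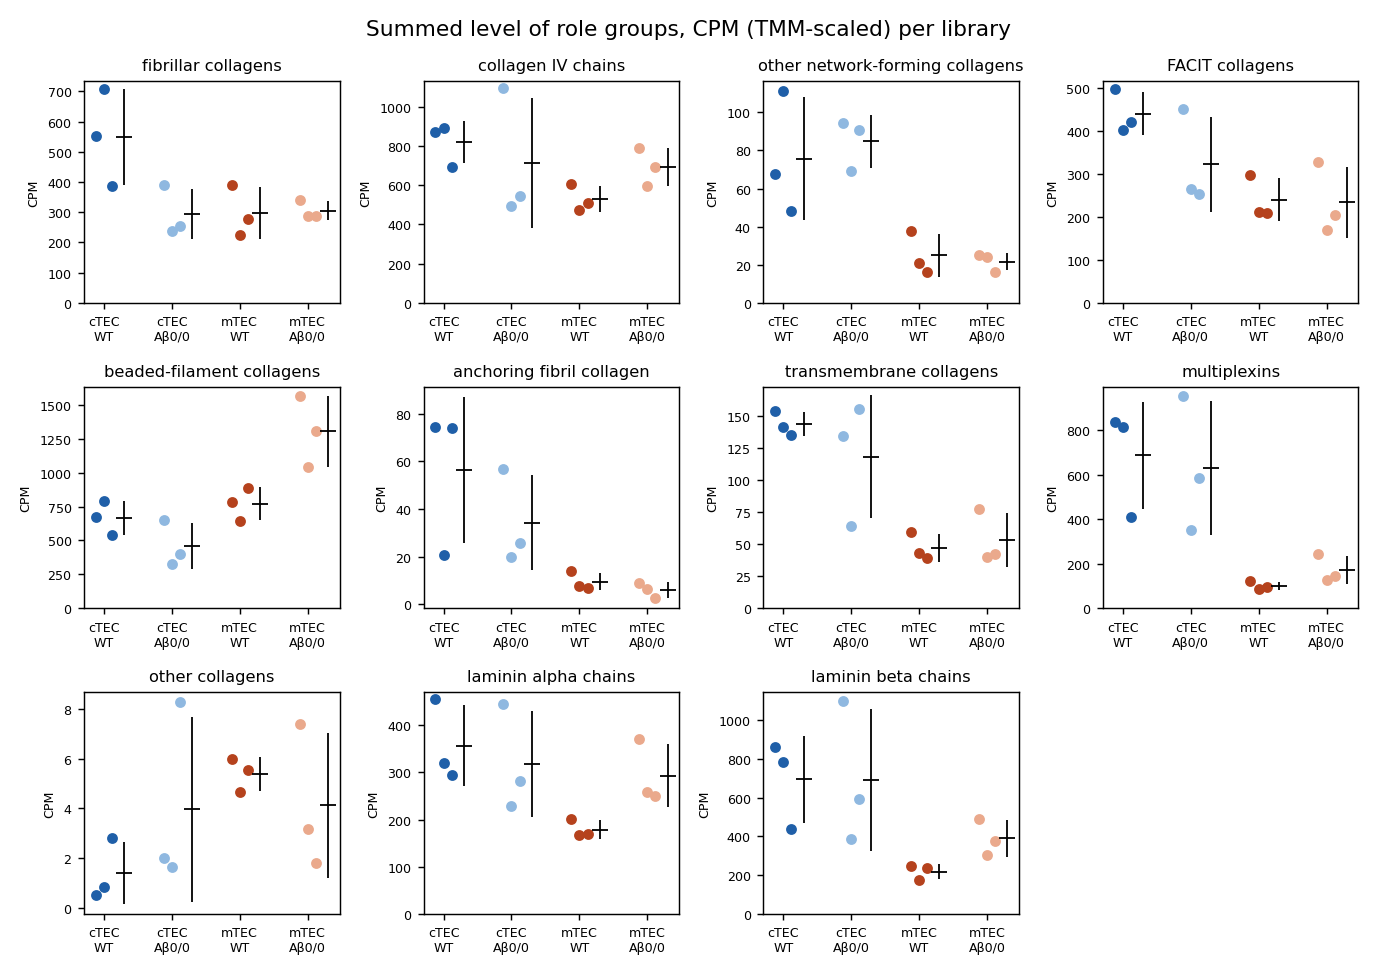
Summed CPM (TMM-scaled) of 11 role groups, with 1 point per library in 4 groups and the mean with SD beside the points. Beaded-filament collagens (mostly Col6a1 and Col6a2) and the laminin alpha and beta chains are higher in each Aβ0/0 than in each WT mTEC library. Multiplexins, mostly Col18a1, lie at 411 to 838 CPM in WT cTEC against 88.6 to 121 CPM in WT mTEC.

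In cTEC the genotypes gave no call. Of 47 members tested with edgeR, 0 passed (0.0194% of all genes tested did, in either direction) and 2 had an unadjusted p under 0.05 (2.16% of all genes tested). DESeq2 called 1 of 55, Col3a1 (adjusted p = 0.0461), against 0.518% of all genes it tested. Col3a1 had 272, 405 and 132 CPM in WT cTEC and 102, 52.6 and 84.8 CPM in Aβ0/0 cTEC, groups that did not overlap (log2 fold change 1.77, SE 0.43, edgeR adjusted p = 0.695). Col5a3 had 6.39, 14.3 and 9.25 CPM in WT and 1.52, 0.0301 and 0 CPM in Aβ0/0, the other of the 2 members with all WT libraries above (4.35% of all genes tested). Col5a3 passed the filter on low counts only through the WT libraries, where it was high. No member had all WT libraries below (3.49% of all genes tested). Col6a1, next by p, had 341 to 493 CPM in WT and 198 to 382 CPM in Aβ0/0 (log2 fold change 0.60, SE 0.32). Laminin chains overlapped between genotypes: Lamb1 had 296 to 442 against 172 to 535 CPM, and Lamb3 105 to 369 against 198 to 498 CPM. Lamc3 had 0 counts in WT cTEC and 5.03, 0 and 0 CPM in Aβ0/0 cTEC, so 1 library held all of it. The summed laminins stood at 1450 ± 480 CPM in WT cTEC and 1361 ± 683 CPM in Aβ0/0 cTEC on the plain library total, and the collagens at 3462 ± 859 and 2699 ± 1198 CPM. Among mural markers beside Col3a1, Rgs5 had 54.3 to 158 CPM in WT cTEC and 4.46 to 23 CPM in Aβ0/0 cTEC, and Pdgfrb had 4.83 to 15.5 CPM and at most 0.101 CPM. All 7 mural markers had a fold change above 0, although their sums overlapped (447 to 1099 against 448 to 639 CPM). All 8 endothelial markers also had a fold change above 0 (median log2 fold change 1.93), and their sums did not overlap (66.4 to 147 against 30.8 to 50.8 CPM). Of the 8 fibroblast markers 7 had a fold change above 0, with sums that overlapped (2211 to 2696 against 2180 to 2878 CPM). Thymocyte markers lay the other way, with 0 of 7 above 0 and sums of 215 to 399 CPM in WT against 455 to 622 CPM in Aβ0/0. None of these markers passed, and their part in the result was not tested. Without Aβ0/0 cTEC replicate 1, the highest of its group for many chains, 14 of 48 members tested had an unadjusted p under 0.05 (7.4% of all genes tested) and still 0 passed.

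Whether the genotype difference itself differed between mTEC and cTEC was tested as an interaction over all 12 libraries. Of 55 members 0 passed in edgeR (0.0103% of all genes tested did), 9 had an unadjusted p under 0.05 (6.9% of all genes tested), DESeq2 called 1 (Col13a1, against 1.45% of all genes it tested) and limma on the regularized log2 values called 1 (Col25a1, against 2.24%). Col13a1 had the smallest p (adjusted p = 0.266). In cTEC it had 5.67 to 8.15 CPM in WT and 1.07 to 9.90 CPM in Aβ0/0, while in mTEC it was at 0 in Aβ0/0. Lamc3 was next (adjusted p = 0.404). For Col6a1 the interaction was -1.36 on the log2 scale (SE 0.39, adjusted p = 0.405): WT was lower than Aβ0/0 in mTEC by 0.79 and higher in cTEC by 0.60. A p that misses the threshold does not show that the subsets respond alike.

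Genes that process collagen, other parts of the basement membrane, receptors and matrix proteases were read from fixed lists. Over the 80 genes of the 4 lists, 9 were called higher in WT mTEC than in WT cTEC and 27 lower, against 18% and 8.81% of all genes tested. In that comparison 3 of 31 processing genes were higher and 9 lower (median log2 fold change -0.44). Adamts14, which trims procollagen, had 0 to 0.238 CPM in cTEC and 6.37 to 10.8 CPM in mTEC, P4ha3, a prolyl hydroxylase subunit, 94.1 to 116 and 4.07 to 13.7 CPM, and Pcolce2, an enhancer of procollagen cleavage, 0.334 to 2.66 and 9.40 to 10.8 CPM. Of 15 other basement membrane genes 0 were higher and 9 lower (median -1.63), among them Fras1 (50.7 to 87 against 4.53 to 11 CPM), Efemp1 (84.7 to 97.7 against 6.36 to 12.3 CPM) and Frem2 (17.4 to 29.1 against 3.15 to 4.50 CPM), of which Fras1 and Frem2 form a complex at embryonic epithelial basement membranes. The other 6 genes of this list did not pass. Of 15 receptors 1 was higher and 7 lower (median -0.87), with the collagen-binding integrins split: Itga1 had 162 to 206 CPM in cTEC and 21.2 to 27.2 CPM in mTEC, and Itga11 had 0.0607 to 0.596 and 4.03 to 4.43 CPM. Ddr2, a collagen-binding kinase, had 7.74 to 30.9 and 0.781 to 3.27 CPM. Of 19 matrix metalloproteinases and inhibitors 5 were higher and 2 lower (median 0.49). Mmp10 was at 0 in WT cTEC and at 0.962 to 1.69 CPM in WT mTEC, Mmp7 at 0.0303 to 4.73 and 26.8 to 28.2 CPM, and the gelatinase Mmp2 at 104 to 159 and 23.1 to 29.3 CPM. Adamts14, Pcolce2, Itga11, Mmp7 and Mmp10 passed the filter on low counts only through the mTEC libraries, where they were high. In Aβ0/0 the calls were 0 higher and 3 lower, 0 and 2, 0 and 2, and 1 and 1 for the 4 lists, or 1 and 8 of the 71 genes tested, against 3.45% and 2.15% of all genes tested.

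Between WT and Aβ0/0 mTEC, 3 of the 80 genes of these lists were called higher in WT (5.32% of all genes tested were) and 2 higher in Aβ0/0 (0.338%). With the replicate number as a block, or without any 1 WT mTEC library, 0 of all genes tested passed, so these calls ended too. Lox, which crosslinks collagen, had 37.3, 39.9 and 31.5 CPM in WT and 77.7, 63.7 and 73.4 CPM in Aβ0/0 (log2 fold change -1.0, SE 0.21, adjusted p = 0.0413). Smoc2, a matricellular protein of basement membranes, had 113, 103 and 141 CPM in WT and 321, 271 and 320 CPM in Aβ0/0 (log2 fold change -1.37, SE 0.19, adjusted p = 0.0352). Both were higher in every Aβ0/0 library, on the same side as Lama3. Mmp3, Mmp10 and Mmp13, secreted proteases that cut collagen or laminin, were at 0 in all 3 Aβ0/0 libraries and passed the filter on low counts only through the WT libraries. Fewer cells had been sorted for the Aβ0/0 mTEC pools, and the part of that in these zeros was not tested. In WT mTEC Mmp3 had 6.83, 1.38 and 2.44 CPM (at least 31.9-fold higher, adjusted p = 0.0434), Mmp10 1.40, 0.962 and 1.69 CPM (at least 12.1-fold higher, adjusted p = 0.0352) and Mmp13 13.4, 7.99 and 6.00 CPM (at least 82.2-fold higher, adjusted p = 0.0352). None of the 15 receptors tested passed, with a median log2 fold change of -0.50. In cTEC and in the interaction 0 genes of these lists passed.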

How the data were processed

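Poly-A RNA of 4 groups, 2 TEC subsets by 2 genotypes, was sequenced in 12 libraries (SMART-Seq v4, no strand kept). Per the labels, the authors used bcl2fastq 2.20.0, Trim Galore and kallisto 0.43, and deposited estimated counts and TPM per transcript. They also deposited a table of regularized log2 values per gene (DESeq2, build mm10), used here for the member rule and 1 alternative. Transcripts (107987 of 109282) were matched to GENCODE M21 (GRCm38), summed per gene, and the estimated counts rounded. Sums cannot separate isoforms or overlapping genes.

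Members and gene lists were chosen with earlier results of these data known. Genes passing filterByExpr were tested with edgeR 4.0.16 (TMM, robust quasi-likelihood test, R 4.3.3) on the 6 libraries of a comparison, or all 12 for the interaction, with Benjamini-Hochberg adjustment over all genes tested and a threshold of 0.05. SE is the log2 fold change divided by the root of F. Named are members past the threshold, the 5 highest by TPM in each group, the 3 smallest p where none passed, all laminin chains and all collagen IV chains. A result on 1 gene that the rule names is not reported here. Partner genes are named where called between genotypes, and otherwise as the 3 largest called folds per list. A floor is 3 counts in a library and covers counting error only. Alternatives used DESeq2 1.42.0, limma 3.58.1 on the log2 values, other filters and scalings, blocks and left-out libraries. edgeR was tested on simulated data. cTEC and mTEC of the same number were taken as 1 pool, from the study's sorting table and not from the labels, and the correlations of their deviations from the group means ran from -0.0368 to 0.422 over 11061 genes. The columns of the log2 table spell the Aβ0/0 groups otherwise than the labels and were matched by subset and number.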

Additional observations from a re-analysis of the deposited data

How the results depend on the processing

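In each comparison the members that passed, or the 3 with the smallest p where none did, kept their direction under every alternative run, but the number of members called moved. Members named for their level or family alone were not included in that count. Where a member had at most 3 counts in each library of the lower group, the alternatives could hardly turn its direction. This held for Col13a1, Lamc3 and Col11a1 in WT against Aβ0/0 mTEC. For WT against Aβ0/0 mTEC, with 4 called, the count was 0 without a filter, 0 with a filter on a mean of 10 counts, 0 with all 12 libraries in the fit, 3 with RLE scaling (Lama3 lost), 3 with limma (Lama3 and Lamc3 lost, Lama4 added) and 13 with DESeq2. Leaving out 1 library gave 0 to 8, with 8 without Aβ0/0 mTEC replicate 1 and 0 without each other. With the replicate number as a block it was 0, and the study's sorting table sets WT and Aβ0/0 pools of one number side by side without saying whether they were sorted together (correlations of same-numbered deviations 0.472, 0.247 and 0.0915 in mTEC, and 0.379, -0.17 and -0.00558 in cTEC). Over all genes the same comparison called 1054, against 27 without a filter, 11 with the mean of 10 counts, 20 with all 12 libraries, 0 with the block and 2457 with DESeq2. For WT against Aβ0/0 cTEC, with 0 called, DESeq2 called 1. For mTEC against cTEC in WT, with 25 called, limma on the log2 values called 13, all 12 libraries 14, the pool as a block 21, and leaving out 1 library 15 (without WT mTEC replicate 2) to 32 (without WT cTEC replicate 3). For mTEC against cTEC in Aβ0/0, with 8 called, the count was 3 with the mean of 10 counts, 18 with DESeq2, 1 with limma, 14 with all 12 libraries, 6 with the block and 1 to 4 with 1 library left out. For the interaction, with 0 called, DESeq2 and limma called 1 each, and the block 0. The causes of these moves were not tested. With 3 pools per group, the scarce chains rest on few counts, and a chain at 0 is below the floor of 3 counts rather than shown absent.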
